A study of Arabidopsis thaliana with 12 samples.

Results

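The genes described here carry a TIR domain, the Toll/interleukin-1 receptor fold that plants use in immune receptors. The family column of the deposited table reads TIR for 118 of its 32833 genes, and membership rests on that column alone. The members and gene lists named below were chosen with earlier results of these data known. Of the 118 genes, 117 are protein-coding and 1, AT5G06665, is a noncoding gene that overlaps TIK, a TIR domain gene, on chromosome 5 and was listed at 0 in all 12 libraries. Proteins of at least 600 codons are encoded by 73 of them, and RefSeq places 71 of these in the TIR-NBS-LRR class, the full-length receptors. The other 44 coding members are shorter, with at most 562 codons, and RefSeq describes most of them as TIR domain or TIR-NBS proteins. The column does not hold every gene with such a description. RefSeq product names mention the TIR-NBS class or a Toll-Interleukin domain for 131 genes, of which 110 were members and 14 stood in the NB-ARC family instead.

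All plants were whole Arabidopsis thaliana seedlings of the wild-type accession Col-0, grown in liquid medium and treated when 10 days old. They were sampled after 6 h in 4 groups. One group had DMSO only, as the mock. Another had isoxaben at 600 nM, another PEP3 at 10 nM, and the last had both agents combined at those concentrations. Every group received the same amount of DMSO, and each had 3 libraries of poly-T-selected RNA, which the series' design calls biological replicates. The library names write isoxaben as ISX and the combination as ISX+PEP3. Isoxaben is a herbicide that blocks cellulose synthesis, and PEP3 is a plant elicitor peptide that cells perceive through receptor kinases. The series' title gives the combined treatment as its subject.

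In a full-length TIR-NBS-LRR receptor, the leucine-rich repeats take part in recognising a pathogen molecule or its action, the nucleotide-binding domain acts as a switch, and the TIR domain carries the output. Activated plant TIR domains act as enzymes on NAD+ and make small nucleotide signals. These are read by heterodimers of EDS1 with PAD4 or SAG101, which act with helper receptors such as the ADR1 proteins to raise defence and, in some cases, cell death. Shorter TIR and TIR-NBS proteins lack some or all of the sensing part, and several are known to signal through the same node.

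Between 16995775 and 22793764 fragments were assigned to genes in each library. The 118 members held 0.108% to 0.110% of them in DMSO, 0.177% to 0.182% after isoxaben, 0.115% to 0.127% after PEP3 and 0.149% to 0.160% after both, and these 4 ranges did not overlap. Levels are given in FPKM, that is, fragments set relative to the gene's length and the library's depth. The test was limma on log2(FPKM + 1), with a call at an adjusted p under 0.05 over the 20248 genes whose mean FPKM was 0.5 or more. Of the members, 81 passed this filter and 37 did not, and no library of these 37 exceeded 0.752 FPKM. Levels of the tested members were low, with a median of 3.09 FPKM against 9.17 FPKM for all tested genes. A mean above 10 FPKM was reached by 13 of them, and 8 lay under 1 FPKM.

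After isoxaben alone, 36 of the 81 tested members rose against DMSO and 3 fell. Among all tested genes, 17.3% rose and 15.2% fell. The median change of the members was 0.25 on the log2 scale, beside -0.01 over all tested genes. A rise of at least 1 was called for 15 members, where 4.51% of all tested genes had one, and a fall of that size for 1 member, where 0.77% did. The libraries of the compared treatments did not overlap for 44 members that were higher and 3 that were lower, against 23.0% and 22.2% of all tested genes. With 1 library left out at a time, 31 of the 36 rises and 1 of the 3 falls were called in all 12 fits. The filter favours genes that are high in some treatment: 4 tested members had under 0.5 FPKM in DMSO, and 3 of these were among the 36. With no filter, 38 of the 39 calls were made and no member under the filter was called after isoxaben. The 83 genes that the same column gives as NB-ARC, named for the nucleotide-binding domain that receptors share, had 8 rises and 4 falls among 57 tested, with a median of 0.10. After PEP3 6 of these 57 rose and none fell, where 7.84% of all tested genes rose and 6.45% fell. After both treatments 13 of the 57 rose and 2 fell, where 16.9% of all tested genes rose and 14.4% fell. The interaction was called below 0 for 4 of the 57, where 4.3% of all tested genes were. The highest NB-ARC changes against DMSO were 0.95 after isoxaben, 0.64 after PEP3 and 1.01 after both. These are the values of ADR1-L2, ADR1-L1 and ADR1-L1. Both helper genes return in a list below, so counts of the family and of that list are not independent.

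**Figure D1:**
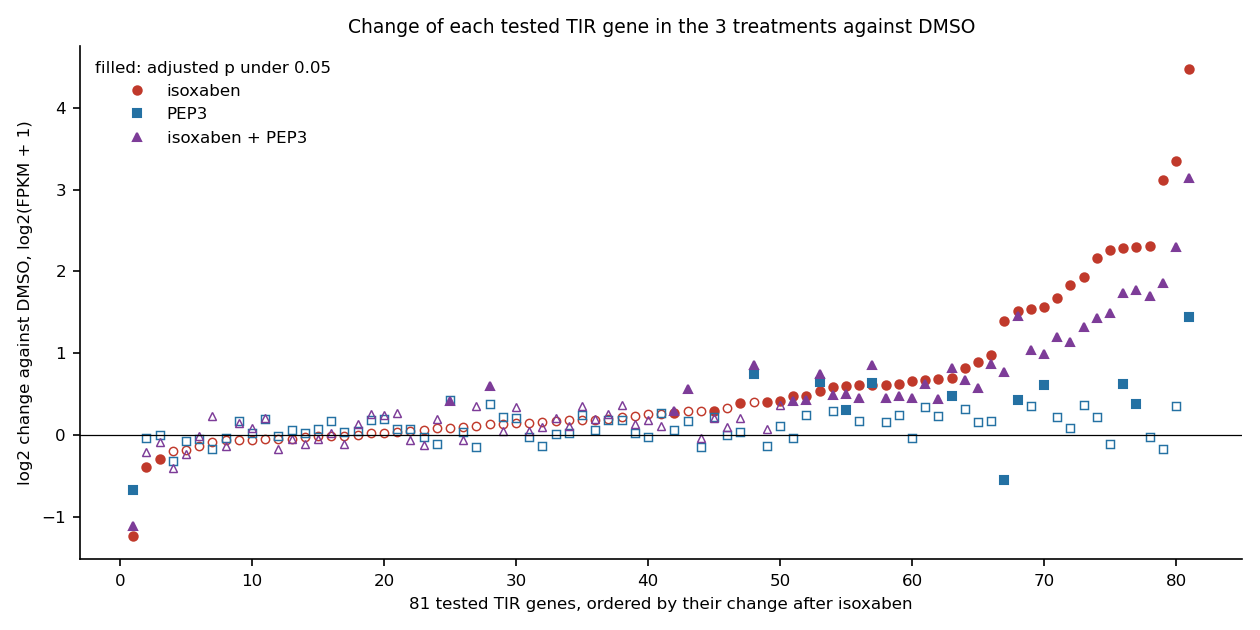
Change of each of the 81 tested TIR genes against DMSO after isoxaben, PEP3 or both (vertical axis, log2(FPKM + 1) scale), with genes ordered by their change after isoxaben (horizontal axis) and called changes filled. The right-hand genes rise by up to 4.48 after isoxaben, and most of them stand lower after both treatments than after isoxaben alone.

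Markers of the shoot and of the root were read beside this result, since whole seedlings hold both. In bulk samples, fewer cells of a type and less RNA per cell cannot be told apart. All 5 shoot markers were above 0, and their summed level ran from 22411 to 23918 FPKM in DMSO and from 18114 to 19618 FPKM after isoxaben. After PEP3 it ran from 19503 to 22460 FPKM, and after both from 19334 to 20402 FPKM. Against DMSO 4 of the 5 fell after isoxaben, 2 after PEP3 and 2 after both. Of all tested genes 15.2%, 6.45% and 14.4% fell in these comparisons. All 8 root markers were above 0, with sums of 2453 to 2541 FPKM in DMSO, 2232 to 2798 FPKM after isoxaben, 1851 to 1947 FPKM after PEP3 and 1530 to 1813 FPKM after both. After isoxaben limma called none of the 8, and none passed an unadjusted p under 0.05 either. Against DMSO 2 of the 8 fell after PEP3 and 2 after both. With both treatments 2 were lower than with isoxaben alone, where 4.09% of all tested genes were. The part of these shifts in the TIR gene results was not tested.

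The member with the largest rise was AT1G57630 on chromosome 1 (21345445 to 21346157, plus strand), a 172-codon protein that RefSeq describes as a TIR domain family protein. It stood at 0.976, 1.09 and 1.89 FPKM in DMSO and at 48.2, 74.4 and 34.5 FPKM after isoxaben. After PEP3 its values were 5.28, 7.00 and 3.81 FPKM, and after both they were 19.5, 20.9 and 17.4 FPKM. The 4 treatments did not overlap in any pair, with DMSO lowest, then PEP3, then both, then isoxaben. The mean after isoxaben was 39.7 times the DMSO mean, and the log2 change was 4.48 ± 0.241 (SE; limma adjusted p 1.76e-08).

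AT1G66090, a 429-codon TIR-NBS protein on chromosome 1 (24602033 to 24604763, plus strand), followed. Its libraries read 1.2, 1.33 and 1.26 FPKM in DMSO, 20.7, 23.8 and 22.1 FPKM after isoxaben, and 8.05, 12.3 and 10.4 FPKM after both. After PEP3 the values were 0.821, 2.82 and 2.49 FPKM, on both sides of the DMSO range. The isoxaben mean was 17.6 times the DMSO mean, a change of 3.35 ± 0.221 (SE; limma adjusted p 1.04e-07). For PEP3 alone the change was 0.36 with an adjusted p of 0.333, and it became 0.69 with an adjusted p of 0.00693 without PEP3 replicate 1, the low library.

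AT2G32140 on chromosome 2 (13655627 to 13657369, minus strand) encodes 353 codons and is named only as a transmembrane receptor in RefSeq. It was near the filter without isoxaben, at 0.749, 0.336 and 0.727 FPKM in DMSO and 0.423, 0.502 and 0.323 FPKM after PEP3. With isoxaben it stood at 15.8, 13.8 and 9.73 FPKM, and with both at 4.56, 5.35 and 4.46 FPKM. Isoxaben libraries were thus the highest, both-treated libraries lay between, and the remaining 6 libraries shared the bottom. Its mean was 21.7 times the DMSO mean, a change of 3.12 ± 0.162 (SE; limma adjusted p 1.27e-08).

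AT2G20142, a 313-codon TIR domain family protein on chromosome 2 (8695374 to 8696643, plus strand), had the third highest mean level of all members. DMSO libraries held 6.34, 6.29 and 7.85 FPKM and isoxaben libraries 37.2, 35.4 and 39.6 FPKM. PEP3 libraries held 9.02, 9.51 and 8.99 FPKM and both-treated libraries 25.0, 27.8 and 24.0 FPKM. No 2 treatments overlapped. The log2 change was 2.30 ± 0.0877 after isoxaben (SE; limma adjusted p 1.25e-09) and 0.38 after PEP3 (limma adjusted p 0.0107). The PEP3 call was lost without DMSO replicate 1 (adjusted p 0.0527), without DMSO replicate 2 (0.0505) and with voom on recovered fragments (0.0526).

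The only member that fell by at least 1 was AT4G19530, a 1189-codon TIR-NBS-LRR gene on chromosome 4 (10651744 to 10657282, plus strand). It stood at 10.8, 11.8 and 11.8 FPKM in DMSO, 4.76, 3.91 and 4.29 FPKM after isoxaben, 5.69, 6.82 and 8.12 FPKM after PEP3, and 5.62, 3.86 and 4.95 FPKM after both. Every treated library was below every DMSO library. Against DMSO the log2 change was -1.23 ± 0.130 after isoxaben (limma adjusted p 7.73e-06), -0.67 ± 0.130 after PEP3 (limma adjusted p 0.00407) and -1.11 ± 0.130 after both (limma adjusted p 2.50e-05), each with its SE.

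**Figure D2:**
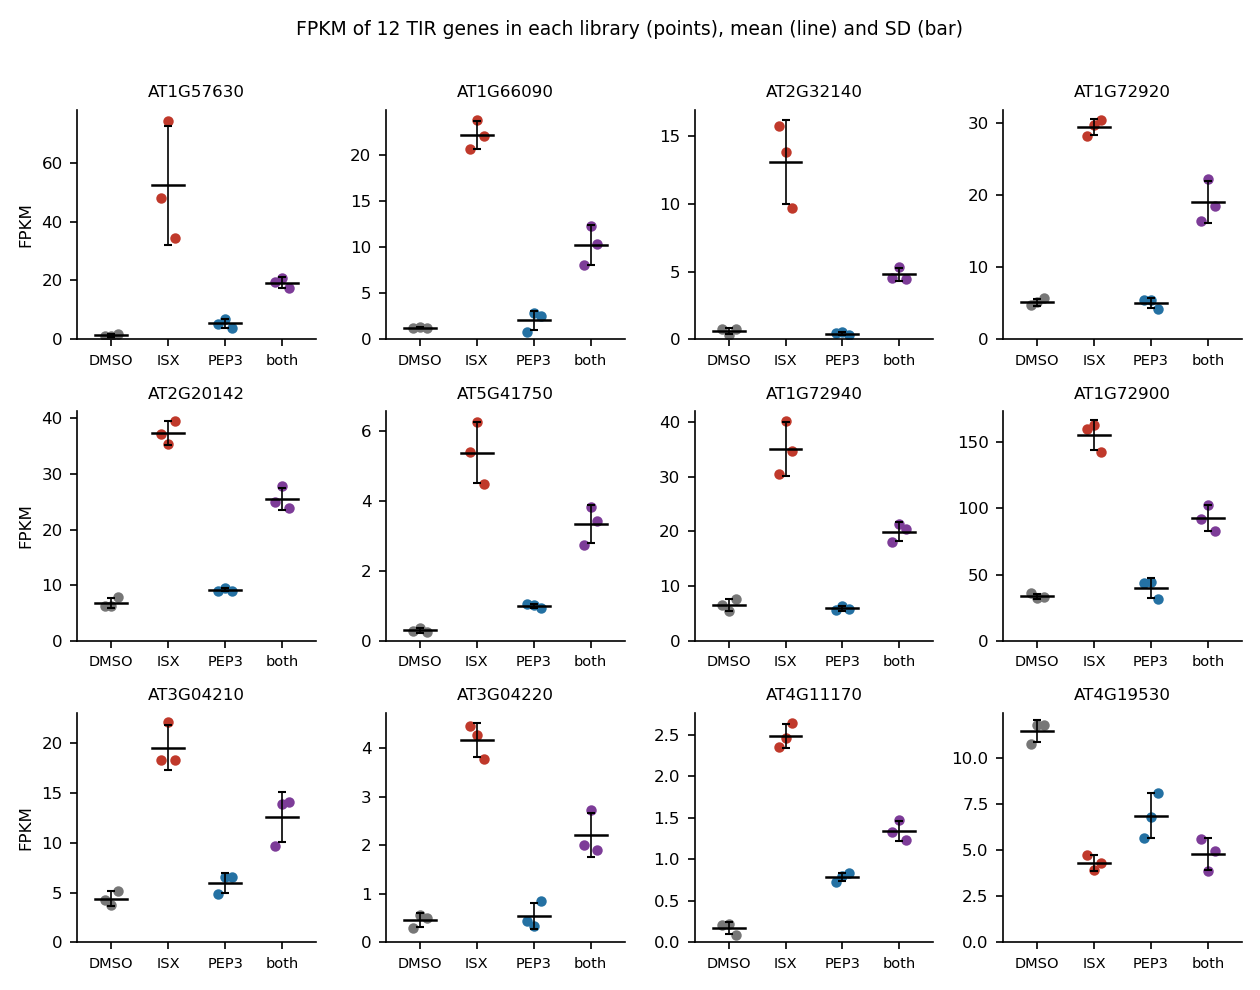
FPKM in each library (points) with the mean (line) and SD (bar, n = 3) for the 10 members with the largest rise after isoxaben, and for AT4G11170 and AT4G19530, each panel with its own axis from 0. In the first 10 panels and in that of AT4G11170 the isoxaben libraries are highest and those with both treatments lie below them, while AT4G19530 is lower in every treated library.

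The 250 bases before the annotated start were read for the 3 members that rose most and for the one that fell most, from RefSeq's TAIR10.1 assembly, whose positions for all 118 members equal those in the deposited table. Each line runs 5′ to 3′ on the gene's own strand, and capitals mark the W-box core TTGAC or its reverse complement, the element bound by WRKY transcription factors. The windows are chr1:21345195-21345444 (plus) for AT1G57630, chr1:24601783-24602032 (plus) for AT1G66090, chr2:13657370-13657619 (minus) for AT2G32140 and chr4:10651494-10651743 (plus) for AT4G19530.
AT1G57630: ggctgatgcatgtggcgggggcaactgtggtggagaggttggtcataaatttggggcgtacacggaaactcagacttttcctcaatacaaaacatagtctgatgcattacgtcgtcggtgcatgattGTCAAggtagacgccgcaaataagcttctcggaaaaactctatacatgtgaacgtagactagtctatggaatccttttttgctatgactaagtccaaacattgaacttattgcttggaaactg
AT1G66090: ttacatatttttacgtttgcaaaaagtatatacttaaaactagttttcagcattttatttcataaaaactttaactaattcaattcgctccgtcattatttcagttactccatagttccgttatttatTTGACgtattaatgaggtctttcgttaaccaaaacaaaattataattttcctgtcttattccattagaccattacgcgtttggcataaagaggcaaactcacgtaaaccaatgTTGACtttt
AT2G32140: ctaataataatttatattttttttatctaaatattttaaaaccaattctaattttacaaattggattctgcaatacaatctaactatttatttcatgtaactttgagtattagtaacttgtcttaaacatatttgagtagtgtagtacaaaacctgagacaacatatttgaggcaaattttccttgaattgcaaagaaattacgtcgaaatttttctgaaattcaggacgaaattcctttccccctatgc
AT4G19530: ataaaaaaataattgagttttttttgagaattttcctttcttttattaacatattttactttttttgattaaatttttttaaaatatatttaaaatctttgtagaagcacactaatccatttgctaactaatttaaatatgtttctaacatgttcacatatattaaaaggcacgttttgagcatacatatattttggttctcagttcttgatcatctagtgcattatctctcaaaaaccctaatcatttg

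The window of AT1G57630 held 1 W-box core, 123 bases before the start, and that of AT1G66090 held 2, at 122 and 9 bases. Those of AT2G32140 and AT4G19530 held none. Searched on both strands, the core TTGAC was in 64 of the 117 coding members' windows (54.7%) and in 44.9% of the windows of all 27418 protein-coding genes. Among tested members it was in 24 of the 36 that rose after isoxaben (66.7%), in 12 of the 15 that rose by at least 1 (80.0%) and in 20 of the 45 that did not rise (44.4%). It was in 45.2% of all tested protein-coding genes. The G-box CACGTG was in 1 of the 117 windows against 6.48% of all protein-coding genes, and the GCC-box GCCGCC in 4 against 1.87%. These matches are descriptions of letters in a window, given without a test.

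Short members made up most of the large rises. Of the 25 tested members under 600 codons, 15 rose after isoxaben, 10 of them by at least 1, none fell, and the median log2 change was 0.61. None of the short ones was lower at an unadjusted p under 0.05, where 4034 of all 20248 tested genes were. Of the 56 tested members with at least 600 codons, 21 rose, 5 of them by at least 1, 3 fell, and the median was 0.18. The boundary of 600 codons was chosen after the values were seen, and the 2 classes were not tested against each other. Tested short members had a median level of 6.77 FPKM and tested long ones 2.84 FPKM. As log2(FPKM + 1) understates changes of low genes, length and level cannot be told apart here. The summed level of the short members ran from 162 to 169 FPKM in DMSO, 514 to 563 FPKM after isoxaben, 206 to 241 FPKM after PEP3 and 378 to 408 FPKM after both. For the long members it ran from 192 to 202, 241 to 250, 196 to 218 and 227 to 243 FPKM in the same order.

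**Figure D3:**
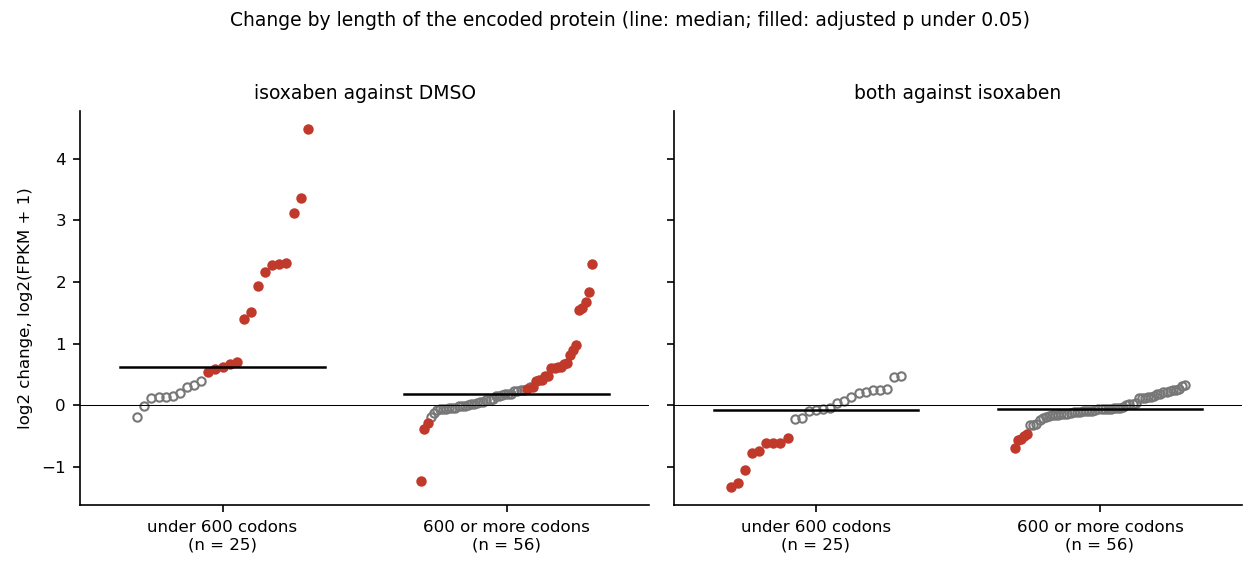
Log2 change of each tested member, after isoxaben against DMSO (left) and after both treatments against isoxaben alone (right), split by the length of the encoded protein, with called members filled and the median as a line. After isoxaben the medians are 0.61 for the 25 short and 0.18 for the 56 long members, and the lowest points on the right belong to the short ones.

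Many TIR genes lie side by side on the chromosomes. With gaps of at most 50000 bases, the 118 members fell into 59 places, 11 of them with 3 or more members, and 32 members stood alone. The largest place, on chromosome 1 from AT1G72840 to AT1G72950 (27409196 to 27445997), held 10 members, of which 9 were tested. Of these, 5 adjacent members, AT1G72900 to AT1G72940, rose after isoxaben. The 4 tested members on their sides, AT1G72840, AT1G72870, AT1G72890 and AT1G72950, were not called, with log2 changes from -0.19 to 0.20.

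AT1G72900, a 363-codon TIR domain protein, was the second most abundant member. It read 36, 32.3 and 33.1 FPKM in DMSO, 160, 163 and 143 FPKM after isoxaben, 43.7, 44.5 and 31.6 FPKM after PEP3 and 92.3, 103 and 83.3 FPKM after both. Its log2 change after isoxaben was 2.17 ± 0.117 (SE; limma adjusted p 1.74e-08). The most abundant member, TIR (AT1G72930, a 176-codon toll/interleukin-1 receptor-like protein), is described next. TIR stood at 57.8, 58.5 and 51.7 FPKM in DMSO, 87.5, 77.9 and 93.1 FPKM after isoxaben, 88.7, 95.8 and 77.7 FPKM after PEP3 and 101, 97.5 and 106 FPKM after both. Isoxaben and PEP3 gave overlapping levels of TIR, both above DMSO, and the combination was the highest of the 4. Its log2 changes against DMSO were 0.61 ± 0.0860 for isoxaben (limma adjusted p 9.82e-05), 0.63 ± 0.0860 for PEP3 (limma adjusted p 0.000335) and 0.85 ± 0.0860 for both (limma adjusted p 7.03e-06), with SE.

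The other 3 risen genes of this place were lower in DMSO. AT1G72920 had 4.69, 5.10 and 5.68 FPKM in DMSO and 28.2, 29.7 and 30.4 FPKM after isoxaben, a change of 2.31 ± 0.114 (SE; limma adjusted p 9.34e-09). AT1G72940 had 6.57, 5.37 and 7.59 FPKM in DMSO and 30.4, 40.2 and 34.7 FPKM after isoxaben, a change of 2.27 ± 0.120 (SE; limma adjusted p 1.55e-08). A stretch covering 64.1% of AT1G72920 is at least 95% identical to AT1G72940, so that reads of the pair may have been exchanged and each value is uncertain. AT1G72910 had 3.66, 2.90 and 3.83 FPKM in DMSO, 11.8, 11.1 and 12.2 FPKM after isoxaben and 8.97, 11.2 and 13.7 FPKM after both. AT1G72910 was not called between both treatments and isoxaben, with a log2 difference of -0.06 (95% interval -0.34 to 0.21).

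**Figure D4:**
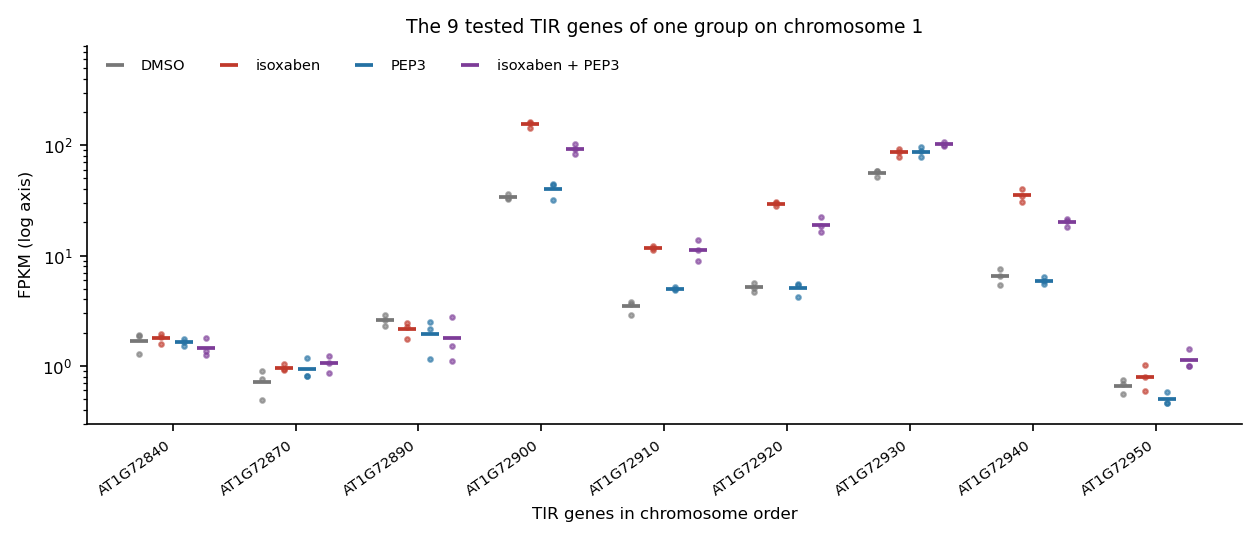
FPKM on a log axis for the 9 tested TIR genes of the chromosome 1 group, in chromosome order, with each library as a point and each treatment mean as a bar. The 5 adjacent genes from AT1G72900 to AT1G72940 stand higher after isoxaben than in DMSO, and for TIR (AT1G72930) the PEP3 and isoxaben libraries overlap.

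Other neighbours rose in pairs. On chromosome 5 the TIR-NBS-LRR genes AT5G41740 (16688626 to 16693119) and AT5G41750 (16693832 to 16699028), both on the plus strand, changed by 1.67 ± 0.115 and 2.29 ± 0.132 after isoxaben (SE; limma adjusted p 1.50e-07 and 3.07e-08). AT5G41750 went from 0.283, 0.372 and 0.241 FPKM in DMSO to 5.41, 6.26 and 4.50 FPKM after isoxaben, and stood at 1.04, 1.03 and 0.942 FPKM after PEP3 and 2.75, 3.84 and 3.42 FPKM after both. Its 4 treatments did not overlap, and the isoxaben mean was 18.1 times the DMSO mean. On chromosome 3 AT3G04210, a 531-codon TIR-NBS gene, and AT3G04220, an 896-codon TIR-NBS-LRR gene, lie on the minus strand from 1105650 to 1112437. AT3G04210 had 4.23, 3.77 and 5.19 FPKM in DMSO and 18.3, 22.1 and 18.2 FPKM after isoxaben, a change of 1.93 ± 0.151 (SE; limma adjusted p 4.93e-07). AT3G04220 had 0.294, 0.559 and 0.513 FPKM in DMSO and 4.46, 4.27 and 3.78 FPKM after isoxaben, a change of 1.83 ± 0.153 (SE; limma adjusted p 8.74e-07).

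Neighbours could also go opposite ways. Next to AT4G19530, the gene that fell most, lies AT4G19520 on the minus strand (10639269 to 10647280). It had 1.89, 1.62 and 2.11 FPKM in DMSO and 4.46, 4.13 and 4.38 FPKM after isoxaben, and rose by 0.89 ± 0.122 (SE; limma adjusted p 7.54e-05). The third gene there, AT4G19510, was not called, at 0.15 (95% interval -0.08 to 0.38). The place on chromosome 4 that holds RPP4, SNC1 and RPP5 (9488466 to 9551028) had 8 members, 6 of them tested, and SNC1 was the only one called after isoxaben.

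Among the full-length receptors outside these pairs, AT4G11170 (chromosome 4, 6811103 to 6817339, plus strand), which RefSeq lists as RMG1 (Resistance Methylated Gene 1), had few fragments in DMSO. Its DMSO libraries held 0.211, 0.220 and 0.0920 FPKM, from 16, 14 and 6 fragments. Isoxaben libraries held 2.36, 2.46 and 2.64 FPKM from 160 to 194 fragments, PEP3 libraries 0.730, 0.798 and 0.833 FPKM, and both-treated libraries 1.33, 1.47 and 1.23 FPKM. The 4 treatments did not overlap in any pair. The isoxaben mean was 14.2 times and the PEP3 mean 4.51 times the DMSO mean. On the log2(FPKM + 1) scale, which understates changes of low genes, AT4G11170 changed by 1.57 after isoxaben and 0.61 after PEP3 (limma adjusted p 3.07e-07 and 0.00404). With a pseudocount of 0.1 these became 3.27 and 1.73. For AT5G41750 the same step took 2.29 and 0.63 to 3.79 and 1.48. AT4G14370, another TIR-NBS-LRR gene, had 0.835, 0.630 and 0.942 FPKM in DMSO and 4.48, 4.80 and 3.47 FPKM after isoxaben, a change of 1.54 ± 0.132 (SE; limma adjusted p 1.10e-06). AT5G22690, of the same class, went from 1.62, 1.60 and 1.49 FPKM to 4.79, 3.79 and 3.73 FPKM, a change of 0.98 ± 0.108 (SE; limma adjusted p 1.11e-05).

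Receptors with a known pathogen or immune role are given next, whatever their values. RPS6, a receptor for a Pseudomonas effector, had 5.49, 5.69 and 5.69 FPKM in DMSO and 8.32, 9.31 and 9.99 FPKM after isoxaben, and rose by 0.62 (limma adjusted p 4.79e-05). RPP1, which recognises an effector of the downy mildew pathogen, had 6.29, 6.88 and 7.30 FPKM against 9.58, 9.32 and 10.9 FPKM, and rose by 0.48 (limma adjusted p 0.000892). ADR2 (AT1G56510, WRR4 in RefSeq), which gives resistance to white rust, had 3.50, 3.42 and 3.11 FPKM against 5.50, 4.48 and 5.14 FPKM, and rose by 0.47 (limma adjusted p 0.00336). RPS4, the partner of RRS1 in sensing bacterial effectors, had 3.12, 3.46 and 3.73 FPKM against 4.74, 5.32 and 4.46 FPKM, and rose by 0.40 (limma adjusted p 0.00910). In each of these 4 genes every isoxaben library was above every DMSO library, and all 4 calls held with any 1 library left out.

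SNC1, whose gain-of-function mutant has constitutive immunity, had 15.2, 16.1 and 15.1 FPKM in DMSO and 19.7, 17.0 and 19.7 FPKM after isoxaben. Its rise of 0.27 (limma adjusted p 0.0213) was lost without DMSO replicate 1 (adjusted p 0.0670), DMSO replicate 3 (0.0617), ISX replicate 1 (0.0812) or ISX replicate 3 (0.0694), and with quantile normalization (0.0595). The panel also held AT3G04210 and TIR, described above. Of its other receptors 10 were tested and not called after isoxaben. Their log2 changes were 0.18 for RPS4B, 0.17 for RPP4, 0.00 for RPP5, -0.02 for CSA1, 0.18 for DSC1, -0.06 for DSC2, -0.19 for TAO1, 0.03 for AT5G11250, 0.18 for AT1G17600 and 0.22 for AT5G46520, listed as VICTR. The 95% interval was narrowest for RPP4, from -0.02 to 0.35, and reached 0.52 for AT5G46520 and 0.47 for AT1G17600. AT5G46520 shares long stretches with its neighbour AT5G46510, listed as VICTL, and 61.7% of AT1G17600 is overlapped by a gene on the opposite strand, so both values are uncertain.

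In the fit as described none of those 10 genes was called in any of the 6 comparisons. With both treatments AT5G46520 stood at 0.37 and AT1G17600 at 0.35 against DMSO (limma adjusted p 0.0524 and 0.0689), and with no filter on low values both were called (0.0438 and 0.0248). With voom on recovered fragments 4 of the 10 were called for both treatments against DMSO, namely AT1G17600 (adjusted p 0.0107), AT5G46520 (0.0128), AT5G11250 (0.0214) and RPP4 (0.0495). AT5G46520 was also called there without DMSO replicate 3 (0.0420) or ISX+PEP3 replicate 3 (0.0465). AT1G64070 (RLM1A), AT1G17615 and AT1G47370 were under the filter. RLM1A reached at most 0.0577 FPKM in a library, AT1G17615 at most 0.186 and AT1G47370 at most 0.594. RLM1B, a paralog of the blackleg resistance gene RLM1A, with 16.3, 17.0 and 14.1 FPKM in DMSO and 13.6, 12.2 and 12.2 FPKM after isoxaben, fell by 0.29 (limma adjusted p 0.0145). That call was lost without DMSO replicate 1 (adjusted p 0.0566), DMSO replicate 2 (0.0702) or ISX replicate 2 (0.0521). AT5G46270, a TIR-NBS-LRR gene with 4.42, 5.23 and 3.66 FPKM in DMSO and 2.65, 3.26 and 3.54 FPKM after isoxaben, fell by 0.39 (limma adjusted p 0.0396). Without DMSO replicate 1, DMSO replicate 2, ISX replicate 1, ISX replicate 2 or PEP3 replicate 2 the adjusted p lay between 0.0512 and 0.166. Panel genes outside the TIR column were RRS1, RRS1B, CHS1, DAR4, RLM3 and LAZ5. Of the 5 tested, LAZ5 rose after isoxaben, by 0.56 (limma adjusted p 0.00158).

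A further group joins a TIR domain to a phloem protein 2-like domain, a lectin fold. PP2A5 (AT1G65390, chromosome 1, 24292372 to 24294740) had 5.41, 8.23 and 6.05 FPKM in DMSO, 20.4, 16.1 and 19.7 FPKM after isoxaben, 4.58, 3.38 and 4.46 FPKM after PEP3 and 11.4, 13.2 and 10.8 FPKM after both. It was thus highest with isoxaben and lowest with PEP3, and no 2 treatments overlapped. PP2A5 rose by 1.40 ± 0.143 after isoxaben (SE; limma adjusted p 5.82e-06) and fell by 0.55 ± 0.143 after PEP3 (SE; limma adjusted p 0.0214). The fall was lost without DMSO replicate 2 (adjusted p 0.0910) or PEP3 replicate 2 (0.101).

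PP2A7, PP2A6 and PP2A8 lie on chromosome 5 in a place of 9 members, 8 of them tested (18135215 to 18205000). PP2A7 had 0.428, 0.470 and 0.249 FPKM in DMSO, from 12, 11 and 6 fragments, and 1.85, 0.928 and 1.27 FPKM after PEP3. Its values were 0.946, 1.2 and 0.402 FPKM after isoxaben and 1.40, 1.25 and 1.90 FPKM after both. PP2A7 rose by 0.75 after PEP3 (limma adjusted p 0.0195) and by 0.86 after both (limma adjusted p 0.00386), which with a pseudocount of 0.1 became 1.57 and 1.75. The first call was lost without DMSO replicate 1 (adjusted p 0.0532), DMSO replicate 3 (0.0637) or PEP3 replicate 1 (0.0733). After isoxaben its change of 0.40 was not called (limma adjusted p 0.136). Without ISX replicate 3, the lowest library, it was 0.59 with an adjusted p of 0.0295. PP2A8 rose by 0.69 after isoxaben and 0.82 after both (limma adjusted p 0.00181 and 0.000583), and PP2A6 rose by 0.56 after both (limma adjusted p 0.00345).

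After PEP3 alone, 10 of the 81 members rose and 2 fell, where 7.84% of all tested genes rose and 6.45% fell. The median change of the members was 0.11 beside 0.01 over all tested genes. A rise of at least 1 was called for 1 member, where 1.21% of all tested genes had one. This was AT1G57630, at 1.45 ± 0.241 (SE; limma adjusted p 0.00150), and that call was lost with voom on recovered fragments (adjusted p 0.0529), where the change was 2.02. Next in size were the rises of PP2A7, AT4G09420, TIR and AT5G41750. AT4G09420, a 457-codon TIR-NBS gene, had 7.45, 6.79 and 7.54 FPKM in DMSO, 10.2, 12.2 and 13.5 FPKM after PEP3, 9.85, 10.6 and 12.6 FPKM after isoxaben and 14.3, 12.7 and 11.6 FPKM after both. All its treated libraries were above all DMSO libraries, with a change of 0.64 ± 0.114 after PEP3 (SE; limma adjusted p 0.00228) and 0.54 ± 0.114 after isoxaben (SE; limma adjusted p 0.00238). AT5G41750 rose by 0.63 ± 0.132 after PEP3 (SE; limma adjusted p 0.00673). The 2 that fell were AT4G19530 and PP2A5.

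Some of the PEP3 calls were lost when 1 library was left out. The number of members called was 7 in place of 12 without DMSO replicate 1, and also 7 without DMSO replicate 2. Of the 10 rises 5 were called in all 12 fits with 1 library left out, namely those of AT1G57630, AT4G09420, AT4G11170, AT5G41750 and TIR. One of the 2 falls was, that of AT4G19530.

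With both treatments, 36 members rose and 1 fell against DMSO, where 16.9% of all tested genes rose and 14.4% fell. The median change was 0.29, and 13 members rose by at least 1, where 3.73% of all tested genes did. Since this comparison and that of isoxaben share the DMSO libraries, their counts are not independent. The largest rises were 3.14 ± 0.241 for AT1G57630 (limma adjusted p 5.61e-07), 2.29 ± 0.221 for AT1G66090 (limma adjusted p 4.55e-06) and 1.86 ± 0.162 for AT2G32140 (limma adjusted p 1.77e-06), with SE. Added to PEP3, isoxaben raised 19 members and lowered none, where 6.02% of all tested genes rose and 2.25% fell. At an unadjusted p under 0.05, 1 member was lower in that comparison, where 1920 of all 20248 tested genes were. This was AT4G19530 at -0.44 (limma adjusted p 0.0555). It was called lower with a filter at 2 FPKM (0.0484), quantile normalization (0.0433) or voom (0.0159), and without PEP3 replicate 1 (0.0296) or ISX+PEP3 replicate 1 (0.0318).

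PEP3 given with isoxaben left some TIR genes lower than isoxaben alone. Of the 81 members 14 were lower and none higher, where 4.09% of all tested genes were lower and 3.32% higher. At an unadjusted p under 0.05, 11 members were higher and 18 lower, where 2135 and 2289 of all 20248 tested genes were. The median difference of the members was -0.07 beside -0.00 over all tested genes. This comparison shares the isoxaben libraries with that of isoxaben against DMSO. Of the 14, 9 encode under 600 codons. The count of 14 was 8 without ISX replicate 1, 8 without ISX+PEP3 replicate 1, 9 without ISX+PEP3 replicate 3, and 8 with a pseudocount of 0.1, and 8 of the 14 were called in all 12 fits with 1 library left out. None of the 57 tested NB-ARC genes was called in this comparison by limma in either direction, while 4 were higher and 2 lower at an unadjusted p under 0.05.

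AT1G57630 was lower by a log2 difference of -1.33 ± 0.241 with both treatments than with isoxaben alone (limma adjusted p 0.00495), AT2G32140 by -1.26 ± 0.162 (limma adjusted p 0.000515) and AT1G66090 by -1.06 ± 0.221 (limma adjusted p 0.0115), with SE. The mean FPKM with both was 0.368, 0.366 and 0.462 times the isoxaben mean in these genes. With a pseudocount of 0.1 the call of AT1G66090 was lost (adjusted p 0.0550). In the chromosome 1 group AT1G72940, AT1G72900 and AT1G72920 were lower by -0.78, -0.74 and -0.61 (limma adjusted p 0.00174, 0.00199 and 0.00604). In each of these 6 genes every library with both treatments was below every isoxaben library.

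The remaining 8 lay between -0.69 and -0.48. AT2G20142 was at -0.53 ± 0.0877 (SE; limma adjusted p 0.00262) and kept its call without any 1 library. AT4G11170 was at -0.57 (limma adjusted p 0.0103), lost with a pseudocount of 0.1 (adjusted p 0.0767). PP2A5 was at -0.62 (limma adjusted p 0.0188), AT3G04220 at -0.69 (limma adjusted p 0.0152) and AT3G04210 at -0.61 (limma adjusted p 0.0277). AT5G41750 stood at -0.56 (limma adjusted p 0.0220), AT5G41740 at -0.48 (limma adjusted p 0.0245) and AT4G14370 at -0.50 (limma adjusted p 0.0346). The calls of these last 6 were each lost in some of the fits with 1 library left out. Those of PP2A5, AT5G41750, AT5G41740 and AT4G14370 were each lost in 4 of the 12 fits, and those of AT3G04210 and AT3G04220 in 3. In PP2A5 these were the fits without ISX replicate 1, ISX replicate 3, ISX+PEP3 replicate 1 and ISX+PEP3 replicate 3. In AT5G41750, AT5G41740 and AT4G14370 they were the fits without ISX replicate 1, ISX replicate 2, ISX+PEP3 replicate 1 and ISX+PEP3 replicate 3. In AT3G04210 they were those without ISX replicate 1, ISX replicate 2 and ISX+PEP3 replicate 1, and in AT3G04220 those without ISX replicate 1, ISX+PEP3 replicate 1 and ISX+PEP3 replicate 3. The highest adjusted p among these fits was 0.127, for AT4G14370.

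The interaction compares the effect of PEP3 in the presence of isoxaben with its effect in DMSO, on the log2 scale. It was called below 0 for 12 members and above 0 for 1, where 4.30% and 1.94% of all tested genes were. The median over members was -0.16 beside -0.01 over all tested genes, and 5 members were below 0 by at least 1, where 1.4% of all tested genes were. AT1G57630 had the lowest value, -2.78 ± 0.341 (SE; limma adjusted p 0.000716). PEP3 raised this gene in DMSO and lowered it in isoxaben, by the values given above. With a pseudocount of 0.1 the interaction calls of AT2G32140 (adjusted p 0.138) and AT1G66090 (0.0547) were lost, and with voom that of AT2G32140 (0.424). The single value above 0 belonged to AT4G19530, at 0.79 ± 0.184 (SE; limma adjusted p 0.0231). PEP3 lowered this gene in DMSO, and with isoxaben its difference was 0.12 and not called. Of the shoot markers 2 of 5 were above 0 in the interaction and of the root markers none was called, and the part of this in the TIR gene values was not tested. Without PEP3 replicate 2, 8 members were called in place of 13, and 8 of the 12 values below 0 and not that of AT4G19530 were called in all 12 fits with 1 library left out.

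Genes of the node that reads TIR signals also rose after isoxaben. The list held EDS1, its close copy EDS1B, their partners PAD4 and SAG101, the helper receptors ADR1, ADR1-L1 and ADR1-L2, and the genes AT5G66890, AT5G66900 and AT5G66910. Of the 9 tested, 7 rose after isoxaben and none fell, where 17.3% of all tested genes rose and 15.2% fell. The median of the 9 was 0.70. None of these 9 was lower at an unadjusted p under 0.05, where 4034 of all 20248 tested genes were. EDS1, the shared subunit of the heterodimers, had 8.56, 8.48 and 7.71 FPKM in DMSO and 14.4, 13.0 and 13.9 FPKM after isoxaben, a change of 0.68 ± 0.0809 (SE; limma adjusted p 2.37e-05). PAD4 rose by 0.81 and SAG101 by 0.85 (limma adjusted p 1.36e-05 and 4.45e-06). ADR1, ADR1-L1 and ADR1-L2 rose by 0.70, 0.92 and 0.95 (limma adjusted p 3.23e-05, 1.19e-06 and 7.91e-06), and AT5G66910 by 0.51 (limma adjusted p 0.00159).

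After PEP3 alone 3 of the 9 rose, all of them ADR1 helpers, where 7.84% of all tested genes rose. ADR1-L1 had 15.9, 15.5 and 15.3 FPKM in DMSO and 24.8, 27.7 and 22.0 FPKM after PEP3, and rose by 0.64 (limma adjusted p 0.000172). ADR1 and ADR1-L2 each rose by 0.47 (limma adjusted p 0.00285 and 0.00789). EDS1, PAD4 and SAG101 were not called, with changes of 0.17, 0.04 and 0.01. Whether the 2 sets differ was not tested. With both treatments 8 of the 9 rose against DMSO, where 16.9% of all tested genes rose. Against isoxaben alone SAG101 was lower, at -0.38 (limma adjusted p 0.0174), a call lost without ISX replicate 1 (adjusted p 0.0707), ISX+PEP3 replicate 1 (0.0591) or ISX+PEP3 replicate 3 (0.0605). The interaction was below 0 for ADR1-L1 at -0.55 (limma adjusted p 0.0126), which held without any 1 library. For ADR1 and ADR1-L2 it was -0.49 and -0.57 (limma adjusted p 0.0321 and 0.0319), and these calls were lost in 8 and 7 of the 12 fits.

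Of 9 genes that regulate these receptors or act beside them, 4 rose after isoxaben and none fell, with a median of 0.10, where 17.3% of all tested genes rose. NUDT7 (AtNUDT7, AT4G12720), a nucleotide hydrolase that restrains EDS1-dependent immunity, had 16.5, 14.9 and 16.4 FPKM in DMSO, 73.1, 70.9 and 72.5 FPKM after isoxaben, 21.9, 19.6 and 18 FPKM after PEP3 and 50.1, 53.7 and 52.7 FPKM after both. No 2 treatments overlapped. NUDT7 (AT4G12720) rose by 2.11 ± 0.0716 after isoxaben (SE; limma adjusted p 4.27e-10) and was lower by -0.46 ± 0.0716 with both than with isoxaben alone (SE; limma adjusted p 0.00181). FMO1, the enzyme that makes the systemic signal N-hydroxypipecolic acid, rose by 1.52 (limma adjusted p 7.48e-05). The co-chaperones SGT1A and SGT1B, which help receptor proteins to fold, rose by 0.79 and 0.24 (limma adjusted p 7.35e-07 and 0.00596). RAR1, HSP81-2, SRFR1, CPR1 and TPR1 were not called after isoxaben. The interaction was below 0 for NUDT7 (AT4G12720) at -0.76 (limma adjusted p 0.00118), which held without any 1 library. It was also called below 0 for SGT1A at -0.37 and FMO1 at -1.08 (limma adjusted p 0.0288 and 0.0458), in 5 and 2 of the 12 fits.

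Coiled-coil receptors are the other large branch of nucleotide-binding immune receptors. Of 11 listed, 9 were tested and 1 rose after isoxaben, where 17.3% of all tested genes did, with a median of 0.07. None was lower at an unadjusted p under 0.05, where 4034 of all 20248 tested genes were. After PEP3 2 of the 9 rose, and after both treatments 4 of the 9 did, where 7.84% and 16.9% of all tested genes rose. The gene that rose after isoxaben was ZAR1 (RPP13L4 in the table), which forms a membrane resistosome. It had 16.6, 17.9 and 15.8 FPKM in DMSO and 30.6, 29.5 and 30.6 FPKM after isoxaben, a rise of 0.82 ± 0.0649 (SE; limma adjusted p 5.34e-07). After PEP3 it rose by 0.57 ± 0.0649 (SE; limma adjusted p 7.62e-05), and RPP8 rose by 0.28 (limma adjusted p 0.046). With both treatments ZAR1, AT1G58602, RPP8 and AT1G50180 rose against DMSO, by 1.00, 0.34, 0.28 and 0.53. No coiled-coil gene of the list was called between both treatments and isoxaben in either direction by limma. At an unadjusted p under 0.05, 2 were higher there, where 2135 of all 20248 tested genes were. The interaction was called below 0 for 1 of the 9, ZAR1, at -0.40 (limma adjusted p 0.0223), where 4.3% of all tested genes were. That call held in 9 of the 12 fits with 1 library left out.

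The 37 members under the filter were too low for a test in these whole seedlings, and 9 of them were listed at 0 in all 12 libraries. By chromosome, the filter was passed on chromosome 2 by 3 of 8 members, on chromosome 3 by 6 of 8, on chromosome 1 by 22 of 33, on chromosome 4 by 18 of 26 and on chromosome 5 by 32 of 43. With no filter AT3G25505, which was under it, was called higher after PEP3, at 0.29 (limma adjusted p 0.0385), and no other of the 37 was called in any of the 6 comparisons. Of the 36 rises after isoxaben, the 21 that did not reach 1 ran from 0.27 to 0.98 on the log2 scale.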

How the data were processed

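The authors deposited FPKM per gene for 12 RNA-seq libraries, 3 for each of 4 treatments. The submitters' processing notes name HISAT2 2.0.5 and TAIR10. The counter and its strand setting were not given in the sources used here. FPKM multiplied by gene length and scaled gave whole fragments for all values (tolerance 0.01), so depth was known, at 16995775 to 22793764 fragments.

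Groups were taken from the sample labels. The 20248 genes whose mean FPKM was 0.5 or more were tested with limma 3.58.1 in R 4.3.3 on log2(FPKM + 1), with a trend, 1 mean per treatment over all 12 libraries, and Benjamini-Hochberg adjustment over all tested genes. A gene was called at an adjusted p under 0.05. The interaction is the effect of PEP3 with isoxaben minus its effect without. On simulated data with 200 changed genes among 20248, the fit recovered 96% for isoxaben against DMSO and 85.5% for the interaction. Recovery among the TIR genes was not tested, nor was its dependence on a gene's level or on the size of its change. Whether a member without a call was unchanged therefore cannot be read from these rates. Copies were sought with BLAST 2.17.0 (at least 95% identity over at least 50% of a gene). Promoters are the 250 bases before the RefSeq start in TAIR10.1. Tables were made with Python 3.11.15, pandas 2.3.3 and numpy 2.4.6, and plots with matplotlib 3.10.9.

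Members and gene lists were chosen with earlier results of these data known. Named were a panel of members with published roles, the 5 highest and 5 lowest called members after isoxaben, after PEP3, between both and isoxaben, and in the interaction, and the 3 with the highest mean. Further genes were named after their values were seen: chromosome neighbours, the remaining called members of these comparisons, and PP2A6 and PP2A8. Alternatives were other pseudocounts, filters, scalings and thresholds, voom, a replicate block and each library left out.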

Additional observations from a re-analysis of the deposited data

Results flagged for a closer look

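In 13 TIR genes the effect of PEP3 with isoxaben differed from its effect without isoxaben, by the interaction term of limma on the log2(FPKM + 1) scale at an adjusted p under 0.05. The difference was -2.78 for AT1G57630, -1.42 for AT1G66090, -1.19 for AT5G41750, -1.18 for AT4G11170 and -1.09 for AT2G32140. With a pseudocount of 0.1 the adjusted p was 0.0547 for AT1G66090 and 0.138 for AT2G32140, and with voom it was 0.424 for AT2G32140. It was -0.98 for AT3G04210 (call lost without PEP3 replicate 2, limma adjusted p 0.0515), -0.96 for AT1G72900, -0.92 for AT2G20142 and -0.86 for AT4G14370. It was -0.69 for AT5G41740, -0.67 for AT1G72940 and -0.59 for AT1G72920, which were called in 5, 5 and 3 of the 12 fits with 1 library left out. The AT1G72920 call was also lost with a pseudocount of 0.1 (limma adjusted p 0.064) or 0.5 (0.0554) and with no filter (0.079). Quantile normalization (0.061), a replicate block (0.0527) and voom (0.102) lost it too. That of AT1G72940 was lost with no filter (limma adjusted p 0.0595). For AT5G41740 no such loss was seen with these settings. For AT4G19530 it was 0.79, called in 8 of the 12.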

How the results depend on the processing

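For the 60 named genes over up to 22 settings and 6 comparisons, 7519 values stayed on the same side of the threshold, 260 lost the call and 45 gained one. Direction was compared only where the main fit or the alternative made a call, and none of those values changed direction. With a change of at least 1 required, the number of TIR genes called was 16 after isoxaben, 1 after PEP3, 14 after both, 3 for both against isoxaben, 11 for both against PEP3 and 5 for the interaction, in place of 39, 12, 37, 14, 19 and 13. At an adjusted p under 0.01 it was 6 after PEP3, 6 for both against isoxaben and 5 for the interaction. A pseudocount of 0.1 gave 8 for both against isoxaben, and the cause was not tested. With 1 library left out at a time the counts ran from 33 to 40, 7 to 13, 33 to 38, 8 to 15, 15 to 18 and 8 to 14 in the order above. TPM scaling, quantile normalization and voom moved the median of all tested genes by less than 0.1. With voom, which adds no 1 to FPKM, the median of the members was 0.38 after isoxaben, 0.21 after PEP3, 0.48 after both and -0.25 for the interaction, in place of 0.25, 0.11, 0.29 and -0.16.

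No pairing of the libraries by replicate number was seen, and the labels do not state one. Same-numbered libraries correlated at -0.11 to 0.103 and others at -0.0983 to 0.123, and 5 of 12 libraries correlated best with their own number. With a replicate block the counts were 39, 11, 36, 13, 17 and 12. Members at few fragments per library, such as PP2A7 with 6 to 12 in DMSO, limit what can be seen.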
